A study of Mus musculus with 10 samples.

Results

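Chromatin accessibility was examined at the 7 mitogen receptor genes Egfr, Erbb2, Erbb3, Erbb4, Fgfr1, Fgfr2 and Fgfr3 in 10 ATAC-seq peak lists from cultured neural stem cells of the adult mouse subependymal zone (SEZ). ATAC-seq cuts open chromatin with a transposase, so that a peak marks DNA that the enzyme could reach. Peaks of all lists that overlapped were joined into regions, and a region belonged to a receptor when its summit lay in the gene body (GENCODE, GRCm38) or within 50 kb of it. Of 99231 regions found in at least 2 libraries, 108 met this rule, with 32 at Egfr, 22 at Erbb4, 13 at Fgfr1, 12 each at Erbb3 and Fgfr3, 9 at Erbb2 and 8 at Fgfr2. The gene bodies are Egfr chr11:16752203-16918158, Erbb2 chr11:98412470-98437716, Fgfr1 chr8:25513654-25575718 and Fgfr3 chr5:33721674-33737068 on the plus strand, and Erbb3 chr10:128567523-128589652, Erbb4 chr1:68032186-69108059 and Fgfr2 chr7:130162451-130266263 on the minus strand. A further 48 regions at these loci had a peak in 1 library and were not followed. The annotated Fgfr2 body includes a transcript of 2.96 Mb that runs over 30 other protein-coding genes. That transcript was left out, and with it the loci would hold 261 regions.

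All cultures came from mice of 10 weeks and from 50000 cells a library. The paper's methods call the replicates biological, but no source states whether these were separate animals. The p-values therefore measure only the spread between these libraries. The genotypes were WT and p27KO, which lacks the cyclin-dependent kinase inhibitor p27 encoded by Cdkn1b, and the methods give the mutant line as kept on a C57BL/6J background. Proliferating cells (PRO) were collected as neurospheres at 3 days in vitro by the labels and methods, although another passage of the study gives a longer culture, and grown with epidermal growth factor (EGF, 20 ng/ml) and fibroblast growth factor (FGF, 10 ng/ml). Differentiating cells (DIFF) had been plated for 2 days on Matrigel with FGF, followed by 24 h in 2% foetal bovine serum and no mitogens, so that mitogens, substrate, serum and time differ together between PRO and DIFF. WT had 3 libraries of each condition and p27KO had 2 of each.

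The ERBB and FGFR families are receptor tyrosine kinases that pass growth factor signals to the RAS-ERK and PI3K-AKT cascades. EGFR binds EGF and is a marker of activated stem cells and transit-amplifying progenitors in the SEZ. ERBB2 has no known ligand of its own and serves as a dimer partner, ERBB3 and ERBB4 bind neuregulins, and FGFR1, FGFR2 and FGFR3 bind FGFs with heparan sulphate as a cofactor.

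The lists held 57534 to 91801 peaks, and among DIFF libraries WT DIFF replicate 3 had the longest list, with 88738 peaks. Read depth is not known from the lists, and where a list holds no peak, none passed the caller's threshold, which does not show closed chromatin. The promoter region of Cdkn1b had a peak in 6 of 6 WT libraries and in 0 of 4 p27KO libraries. The promoters of 4 Y-linked genes had peaks in every WT library and in no p27KO library, so genotype and Y chromosome content cannot be told apart here. All 7 receptor genes are autosomal. Of 8 neural stem and progenitor markers, 8 had a promoter peak in all 10 libraries. The endothelial markers Pecam1, Cdh5, Cldn5 and Tie1 had none in any library, nor had the microglial genes Ptprc, Cx3cr1 and Spi1 or the neuroblast gene Dcx, although the neuroblast genes Tubb3 and Dlx2 had a promoter peak in all 10 libraries and Stmn2 in 9. Promoter peaks in all 10 libraries were found for the microglial genes Aif1 and P2ry12, the astrocyte genes Gfap and Aldh1l1, the oligodendrocyte genes Olig2 and Mbp and the ependymal gene Foxj1, while Sox10, Mog and Tmem212 had none. The ependymal gene Ccdc153 moved with condition, with a peak in 4 of 5 PRO and 0 of 5 DIFF libraries. The part of other cell types in the results was not tested.

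The sequences below are the Egfr promoter, as the receptor of the mitogen EGF, and for each receptor with a called region the called region of smallest p, which carry the comparisons that follow. They are read from the GRCm38 plus strand, with capitals marking motif matches. Those of the called regions are centred on the summit, and the Egfr promoter sequence ends at the last base before the annotated gene start.
Egfr promoter, chr11:16752062-16752202: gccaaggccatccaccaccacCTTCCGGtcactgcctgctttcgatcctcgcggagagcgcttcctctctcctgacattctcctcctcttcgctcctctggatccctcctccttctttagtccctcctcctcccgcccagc
Fgfr3 upstream region, chr5:33698179-33698478: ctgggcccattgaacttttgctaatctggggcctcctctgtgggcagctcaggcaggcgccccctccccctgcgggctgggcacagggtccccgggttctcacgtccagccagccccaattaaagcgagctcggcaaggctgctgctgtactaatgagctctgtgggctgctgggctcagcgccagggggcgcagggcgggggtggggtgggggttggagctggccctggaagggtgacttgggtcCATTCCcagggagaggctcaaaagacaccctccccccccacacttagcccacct
Fgfr1 upstream region, chr8:25500622-25500921: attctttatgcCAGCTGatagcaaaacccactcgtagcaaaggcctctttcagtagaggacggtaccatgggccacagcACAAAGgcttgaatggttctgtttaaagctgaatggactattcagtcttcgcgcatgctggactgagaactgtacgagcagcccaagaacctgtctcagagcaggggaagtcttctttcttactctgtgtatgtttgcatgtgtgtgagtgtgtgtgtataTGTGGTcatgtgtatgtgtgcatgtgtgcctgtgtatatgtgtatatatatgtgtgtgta
Egfr downstream region, chr11:16941402-16941701: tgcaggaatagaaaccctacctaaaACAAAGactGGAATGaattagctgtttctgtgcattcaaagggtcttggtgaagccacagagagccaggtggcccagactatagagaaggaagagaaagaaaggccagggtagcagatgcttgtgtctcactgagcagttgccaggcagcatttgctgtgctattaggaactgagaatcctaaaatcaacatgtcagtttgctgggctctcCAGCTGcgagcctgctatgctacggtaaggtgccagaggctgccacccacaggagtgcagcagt
Erbb4 upstream region, chr1:69124475-69124774: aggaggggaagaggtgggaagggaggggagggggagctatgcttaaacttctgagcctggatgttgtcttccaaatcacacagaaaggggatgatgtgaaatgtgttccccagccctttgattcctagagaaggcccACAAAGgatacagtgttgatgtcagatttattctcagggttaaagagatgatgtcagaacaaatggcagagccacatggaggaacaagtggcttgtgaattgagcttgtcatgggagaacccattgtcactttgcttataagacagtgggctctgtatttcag

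Capitals mark 1 ETS match in the Egfr promoter, 1 TEAD match in the Fgfr3 region and 1 SOX match in the Erbb4 region. The Fgfr1 region held 1 match each of SOX, E-box and RUNX, and the Egfr downstream region 1 each of SOX, E-box and TEAD. The motifs were read on both strands in the 300 bases around the summit as AP-1 TGANTCA, SOX ACAAAG, E-box CAGCTG, NFI TTGGCA, TEAD GGAATG, ETS CCGGAAG and RUNX TGTGGT. Among the 108 receptor regions, 33.3% held the SOX letters against 27.8% of all regions, and 14.8% held the AP-1 letters against 11.5%. For the E-box the shares were 21.3% and 26.1%, for NFI 20.4% and 23.8%, for TEAD 19.4% and 19.5%, for RUNX 18.5% and 19%, and for ETS 8.33% and 4.08%. Of the 9 receptor regions with the ETS letters, 2 were receptor promoters and 1 was among the 88 regions at no promoter. The rest lay at promoters of other genes. A match is only a run of letters and shows no binding. Receptor regions had a median length of 509 bp and a median GC content of 49% around the summit, against 486 bp and 50% over all regions.

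Each peak was given its percentile of fold enrichment within its own list, with the strongest peak at the top. A percentile still depends on list length, since weak peaks added to a list raise the percentile of the others. Where groups are said below to lie apart in percentile, the share of all regions that do so is not given. Called regions were picked by their p, so groups apart there are a description and no further support. PRO lists held 76372 to 80179 peaks in WT and 83854 to 91801 in p27KO. DIFF lists held 57534 to 88738 in WT and 67589 to 73220 in p27KO. The promoters of all 7 receptors were accessible in all 10 libraries and none passed the test of mitogen withdrawal or of genotype. A promoter region is the region whose summit is nearest to a start site of the gene, within 3 kb. Of all 99231 regions, 38.2% had a peak in all 10 libraries, and of the receptor regions 40.7% (44 of 108). Promoters were more constant than regions of every kind. Of 89 tested promoters of pathway genes, listed further below, 79 had a peak in all 10 libraries. So did 84.6% of the 13 flank regions at promoters of other genes.

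Fgfr1 had the strongest promoter peak of the 7 (chr8:25518482-25519821, summit 19 bases upstream of the start site). Its percentiles were 85.1, 86.2 and 91.1 in WT PRO, 80.7, 90.7 and 81.5 in WT DIFF, 91.0 and 95.2 in p27KO PRO, and 89.2 and 84.2 in p27KO DIFF. It ranked above Egfr in 10 of 10 libraries, by 15.1 ± 5.92 percentile points (SD over libraries).

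The Egfr promoter peak (chr11:16751749-16753518, summit in the 5′ untranslated part of exon 1) stood at 70.5, 78.7 and 78.6 in WT PRO, at 60.0, 64.8 and 68.7 in WT DIFF, at 82.6 and 82.4 in p27KO PRO, and at 75.0 and 62.3 in p27KO DIFF. In both genotypes each DIFF value lay below every PRO value, but the share of all promoters with this pattern is not given here. The change from PRO to DIFF was −0.22 ± 0.19 (SE) in WT and −0.29 ± 0.23 in p27KO, in units of the normal score to which ranks over all tested regions were converted. Neither passed the test, with adjusted p = 0.589 and 0.666 by limma over 14836 promoters.

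The other promoters lay lower on average and close to each other. Erbb2 (chr11:98412304-98413525, exon 1) had 66.9, 51.8 and 70.1 in WT PRO, 59.5, 49.6 and 64.5 in WT DIFF, 65.8 and 73.7 in p27KO PRO, and 45.6 and 64.8 in p27KO DIFF. At Erbb3 (chr10:128589643-128590678, summit 903 bases upstream) the values were 59.3, 60.9 and 59.8, then 53.0, 53.6 and 59.5, then 77.0 and 52.9, and then 57.4 and 70.8, in the same order of groups. PRO and DIFF overlapped at Erbb3 in both genotypes and at Erbb2 in WT, while in p27KO both Erbb2 DIFF values lay below both PRO values. The mean percentile in WT went from 62.9 in PRO to 57.9 in DIFF at Erbb2, and from 60.0 to 55.4 at Erbb3. Their WT changes in normal score were 0.02 ± 0.21 and 0.03 ± 0.21 (SE), so the 2 measures can differ in direction. The Erbb4 promoter region (chr1:69105247-69108812), joined from overlapping peaks of the libraries, was the longest of the 7, at 3566 bp. Its summit, the median of the library summits, lay in intron 1. Its values were 53.9, 51.3 and 59.3 in WT PRO, 67.3, 38.3 and 65.7 in WT DIFF, 57.1 and 63.2 in p27KO PRO, and 54.9 and 58.7 in p27KO DIFF. The spread within WT DIFF covered all other groups.

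Among the FGF receptors, Fgfr2 (chr7:130264612-130266624, summit 64 bases upstream) had 68.5, 67.3 and 61.3 in WT PRO, 35.4, 65.1 and 64.0 in WT DIFF, 70.5 and 64.8 in p27KO PRO, and 65.5 and 69.8 in p27KO DIFF. The low value of WT DIFF replicate 1 stood apart from the rest. Fgfr3 (chr5:33721444-33722317, exon 1) had 51.5, 59.3 and 55.1 in WT PRO, 51.7, 63.4 and 76.7 in WT DIFF, 59.4 and 53.3 in p27KO PRO, and 63.9 and 66.6 in p27KO DIFF. Its change was the highest of the 7, at 0.41 ± 0.17 (SE) in WT (adjusted p = 0.305, limma) and 0.49 ± 0.21 in p27KO (adjusted p = 0.492). In p27KO both DIFF values lay above both PRO values, and in WT the groups overlapped.

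Ordered by the mean over libraries, the promoters ran from Fgfr1 (87.5 ± 4.69, SD, n = 10) and Egfr (72.4 ± 8.3) through Fgfr2 (63.2 ± 10.2), Erbb2 (61.2 ± 9.34), Erbb3 (60.4 ± 7.83) and Fgfr3 (60.1 ± 7.89) to Erbb4 (57.0 ± 8.33). Egfr exceeded Fgfr2 in 8 of 10 libraries, by 9.15 ± 9.59 points. That step, too, was below its SD. From Fgfr2 downwards each step was 0.328 to 3.11 points, below its SD of 9.67 to 13.5 points. In these lower steps the upper promoter was higher in 5 or 6 of 10 libraries. The order was not tested. Promoters called among all 14836 made up 0.317% (lower) and 0.445% (higher) at DIFF in WT, and 0.202% and 0.216% in p27KO, so that 0 of 7 receptor promoters is near that background. At an unadjusted p under 0.05, 1 of 7 would be counted in each genotype, Fgfr3 both times, beside 15% of all promoters in WT and 9.89% in p27KO. Between the genotypes the changes ran from −0.09 (Erbb2) to 0.28 (Fgfr2) at DIFF and from −0.10 (Fgfr3) to 0.30 (Fgfr1) at PRO, and 0 of 7 passed by limma, also at an unadjusted p under 0.05, which 2.56% (DIFF) and 2.71% (PRO) of all promoters did. Several of the small changes turn sign under another setting or without 1 library, including those of Erbb2, Erbb3, Erbb4, Fgfr1 and Fgfr2 in WT.

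**Figure D1:**
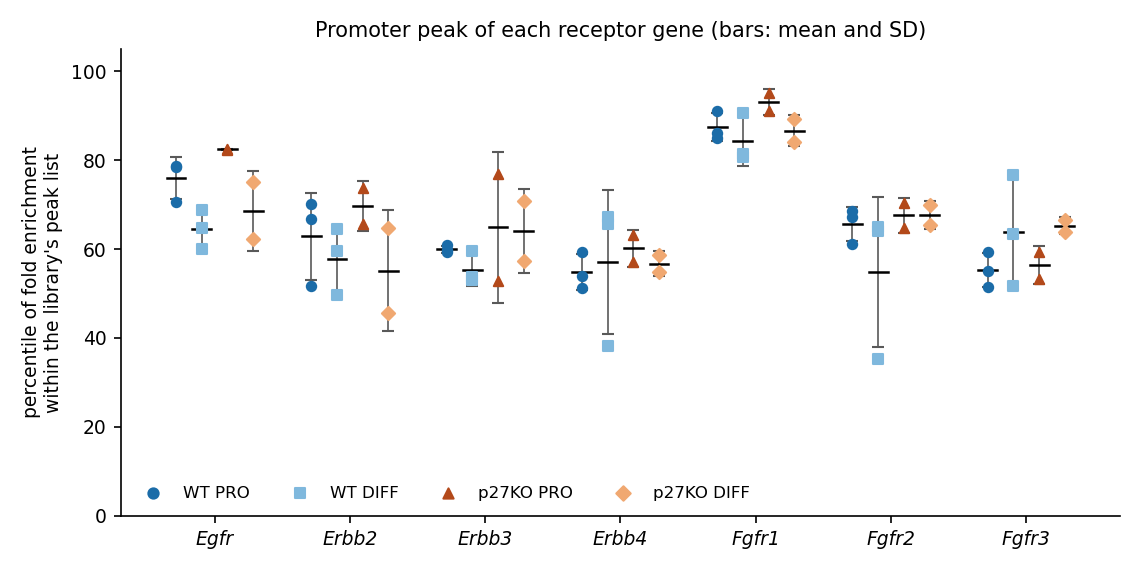
Percentile of fold enrichment within each library's own peak list (vertical axis, from the weakest to the strongest peak) for the promoter peak of each receptor gene (horizontal axis). Points are libraries, bars the mean and SD of the 4 groups, and the Fgfr1 values, 80.7 to 95.2, stand above those of the other receptors in each library.

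The receptor regions called between PRO and DIFF lay away from promoters, and few promoters of any gene were called. Of 71 receptor regions found in 5 or more libraries, the number needed for a test, 8 changed between PRO and DIFF in WT and 5 in p27KO (adjusted p under 0.05, limma over 70627 regions). In WT 2 of the 71 were lower at DIFF and 6 higher, where 10.1% and 9.15% of all tested regions were called in those directions. In p27KO 2 were lower and 3 higher, beside 6.48% and 5.83%. The receptor regions' shares were therefore below or near the background, at 2.82% lower in both genotypes and 8.45% (WT) and 4.23% (p27KO) higher. The median change over the 71 was 0.0331 in WT and 0.0813 in p27KO, against 0.0344 and 0.0425 over all tested regions. Without 1 library the p27KO count was 2 (without p27KO PRO replicate 1), 1 (without PRO replicate 2), 3 (without DIFF replicate 1) or 2 (without DIFF replicate 2). Of these calls 4 were shared, which is 50% of the WT list and 80% of the p27KO list. The 9 regions called in either genotype had the same sign of change in both, 7 higher and 2 lower at DIFF. The matching shares over all tested regions are not given here, so neither the overlap nor the shared sign is read as a trait of the receptor loci. Of the 9 called regions, 4 lay in introns, 5 in the flanks, and 0 at a promoter. With p adjusted over all promoters, 0.317% of them were called lower and 0.445% higher in WT, and 0.202% and 0.216% in p27KO. The count of 0 at a promoter is therefore near the background. Absent peaks were tied at a bottom score, which is higher in libraries where more regions lack a peak. A region in the Erbb3 flank (chr10:128546403-128546558) had a WT PRO peak and no WT DIFF peak, yet its WT change was 0.19 ± 0.23 (SE). Where peaks are absent, the sign of a change thus depends in part on the tied score.

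Upstream of Fgfr3, the receptor gene with the smallest p, a region 23.3 kb before the gene (chr5:33698077-33698674) gained accessibility. It had a peak in 1 of 3 WT PRO libraries, at percentile 12.9, and in all WT DIFF libraries, at 64.4, 43.6 and 65.6. In p27KO it stood at 35.1 and 19.5 in PRO and at 67.0 and 53.1 in DIFF. Neither genotype's groups overlapped. The change was 1.71 ± 0.22 (SE) in WT (adjusted p = 0.000439, limma) and 1.14 ± 0.27 in p27KO (adjusted p = 0.0193). Peaks in PRO libraries alone were too few for a test, and the region met the minimum through DIFF, where it was high. Its p-values are therefore a description and no support for a difference. The p27KO call is lost without p27KO PRO replicate 1 (adjusted p = 0.0577), PRO replicate 2 (0.119) or DIFF replicate 1 (0.134), and when regions found in 2 to 4 libraries are tested too (0.0676).

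Another Fgfr3 region, 37.6 kb upstream (chr5:33683963-33684366), had a peak in all 10 libraries and was called in p27KO alone. Its percentiles in p27KO were 15.2 and 31.9 in PRO and 64.6 and 53.5 in DIFF, whereas WT had 53.1, 38.7 and 49.7 in PRO and 47.4, 24.3 and 64.0 in DIFF. The p27KO groups did not overlap and the WT groups did. The change was 1.21 ± 0.27 in p27KO (adjusted p = 0.0134, limma) and 0.20 ± 0.22 in WT. The difference between the genotypes was 1.02 ± 0.35, which did not pass its own test (unadjusted p = 0.0132, adjusted p = 1.00 by limma). Without p27KO PRO replicate 1 or DIFF replicate 1 the adjusted p rose to 0.103 and 0.0983.

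Fgfr1, encoding a receptor for FGF2, had its call in the upstream flank, 12.9 kb before the gene (chr8:25500611-25501058). WT DIFF libraries had percentiles of 46.1, 45.1 and 56.5, and of the WT PRO libraries replicate 2 alone had a peak, at 17.4. In p27KO 1 library had a peak, DIFF replicate 2, at 10.0. The WT groups were fully apart, with a change of 1.45 ± 0.22 (adjusted p = 0.00113, limma). The p27KO change was 0.73 ± 0.27 (adjusted p = 0.115, limma) and rests on the 1 p27KO peak and the tied score of absent peaks. This region was found in exactly 5 libraries, most of them DIFF, and met the minimum for a test only through them. Its p-values are therefore a description and no support for a difference. The interaction was −0.72 ± 0.35 with adjusted p = 1.00, so the genotypes were not shown to differ.

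At Egfr the change of smallest p was a fall 23.4 kb beyond the end of the gene (chr11:16941048-16942262), in a region among the most enriched of every PRO list. WT PRO libraries had percentiles of 99.0, 98.6 and 98.8 and WT DIFF libraries 87.4, 84.1 and 94.2. In p27KO the values were 99.4 and 99.5 in PRO and 93.8 and 91.0 in DIFF. The highest DIFF value lay below the lowest PRO value in both genotypes. In fold enrichment the region went from 16.7 to 17.1 in WT PRO to 9.63 to 14.2 in WT DIFF, and from 19.8 and 19.9 to 13.9 and 14.4 in p27KO. The changes were −0.96 ± 0.17 (adjusted p = 0.00288, limma) and −1.06 ± 0.21 (adjusted p = 0.00817). The p27KO call did not hold without p27KO PRO replicate 2 (adjusted p = 0.0652) or DIFF replicate 2 (0.0635). The region lies between Egfr and Fbxo48, whose promoter peak at chr11:16950867-16951822 was in all 10 libraries at 97.4 to 99.6 and was not called.

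Inside Egfr, 2 intronic regions rose in WT. The region in intron 6 (chr11:16868198-16868521) had a peak in WT PRO replicate 2 alone, at 17.4, and in all WT DIFF libraries, at 56.0, 32.2 and 47.3. Its p27KO values were 17.4 and 5.62 in PRO and 43.4 and 21.1 in DIFF, and the groups were apart in both genotypes. The change was 1.35 ± 0.26 in WT (adjusted p = 0.00399, limma) and 0.86 ± 0.32 in p27KO (adjusted p = 0.108). The intron 6 region, too, had too few PRO peaks for a test and met the minimum through DIFF, where it was high. Its p-values are a description and no support for a difference. The region in intron 1 (chr11:16823661-16824108) had 30.4, 10.1 and 28.3 in WT PRO and 39.5, 47.0 and 62.7 in WT DIFF, against 25.3 and 55.6, and 50.3 and 50.6, in p27KO. Only the WT groups were apart. Its WT change was 0.88 ± 0.25 (adjusted p = 0.0315, limma). The call is lost without WT PRO replicate 1 (0.0543), PRO replicate 2 (0.112), DIFF replicate 1 (0.0595), DIFF replicate 2 (0.0899) or DIFF replicate 3 (0.0713), and with regions of 2 libraries tested (0.0622).

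Erbb4 spans 1076 kb, the longest of the 7 genes, and had 2 intronic regions that rose and 1 upstream region with peaks in PRO alone. In intron 20 (chr1:68142586-68142963) no WT PRO library had a peak, WT DIFF replicates 1 and 3 had one at 28.2 and 54.4, p27KO PRO replicate 1 had one at 11.4, and p27KO DIFF had 39.4 and 49.5. The groups overlapped in WT, where WT DIFF replicate 2 had no peak, and not in p27KO. The changes were 1.15 ± 0.24 in WT (adjusted p = 0.00647, limma) and 1.43 ± 0.29 in p27KO (adjusted p = 0.00939). The intron 20 region was found in exactly 5 libraries, most of them DIFF, and met the minimum for a test only through them. Its p-values, too, are a description and no support for a difference. The p27KO call was lost without p27KO PRO replicate 2 (0.0774) or DIFF replicate 2 (0.0591).

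In Erbb4 intron 1 (chr1:68779877-68781510) WT PRO replicate 1 had a peak at 27.7, WT DIFF libraries had 33.3, 41.1 and 44.4, and p27KO libraries had 28.3 and 39.8 in PRO and 53.2 and 52.2 in DIFF. DIFF values lay above PRO values in both genotypes. The change was 1.15 ± 0.27 in WT (adjusted p = 0.0115, limma) and 0.80 ± 0.33 in p27KO (adjusted p = 0.147). The intron 1 region had too few PRO peaks for a test and met the minimum through DIFF, where it was high. Its p-values are a description and no support for a difference. The upstream region lies 16.6 kb before the gene (chr1:69124487-69124737). It had a peak in all PRO libraries, at 47.3, 39.9 and 60.6 in WT and 52.1 and 51.9 in p27KO, and in 0 of 5 DIFF libraries. The changes were −1.18 ± 0.23 (adjusted p = 0.00458, limma) and −1.13 ± 0.28 (adjusted p = 0.0238), where libraries without a peak were tied at the bottom of the ranks. The region was found in exactly 5 libraries, all PRO, so it met the minimum for a test only through the group where it was high, and its p-values are a description and no support for a difference. The counts of calls given above include this region and the others that met the minimum only through the group where they were high. The called regions with a peak in all 10 libraries were the Egfr downstream region, the called Egfr intron 1 region and the Fgfr3 region 37.6 kb upstream. The p27KO call was lost without p27KO PRO replicate 1 (0.0768), PRO replicate 2 (0.126), DIFF replicate 1 (0.0747) or DIFF replicate 2 (0.122), and when only peaks with −log10 q of at least 5 were kept (0.145). No region at Erbb2, Erbb3 or Fgfr2 was called in either genotype, among 6, 10 and 6 regions tested.

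**Figure D2:**
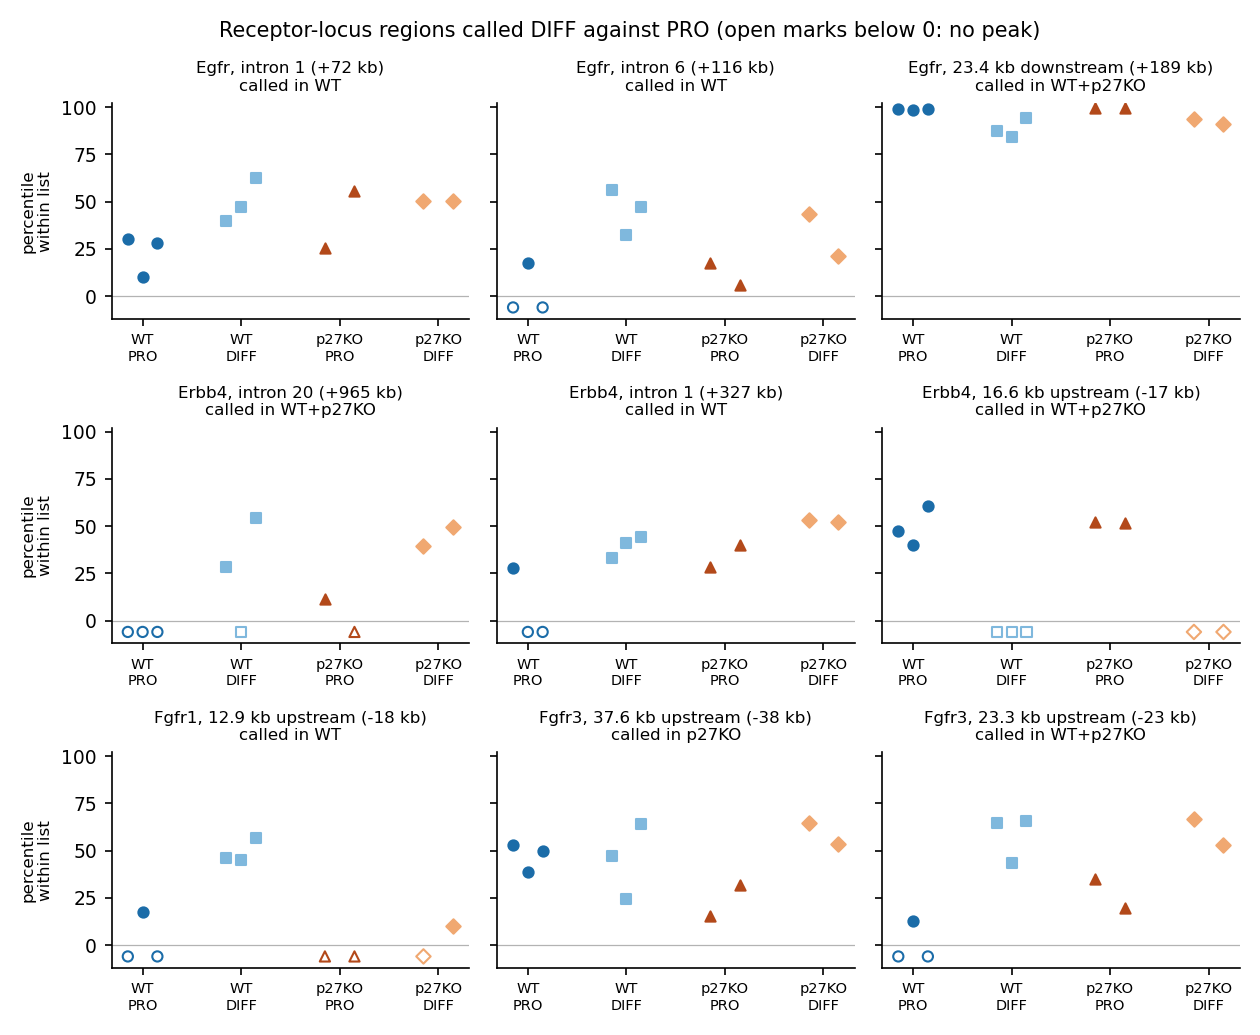
Percentile within each library's list (vertical axis) in the 4 groups (horizontal axis) for the 9 receptor regions called between PRO and DIFF. Each mark is a library and open marks under the 0 line are libraries with no peak. The Egfr downstream region sits near the top in PRO, and the Erbb4 upstream region has no peak in any DIFF library.

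**Figure D3:**
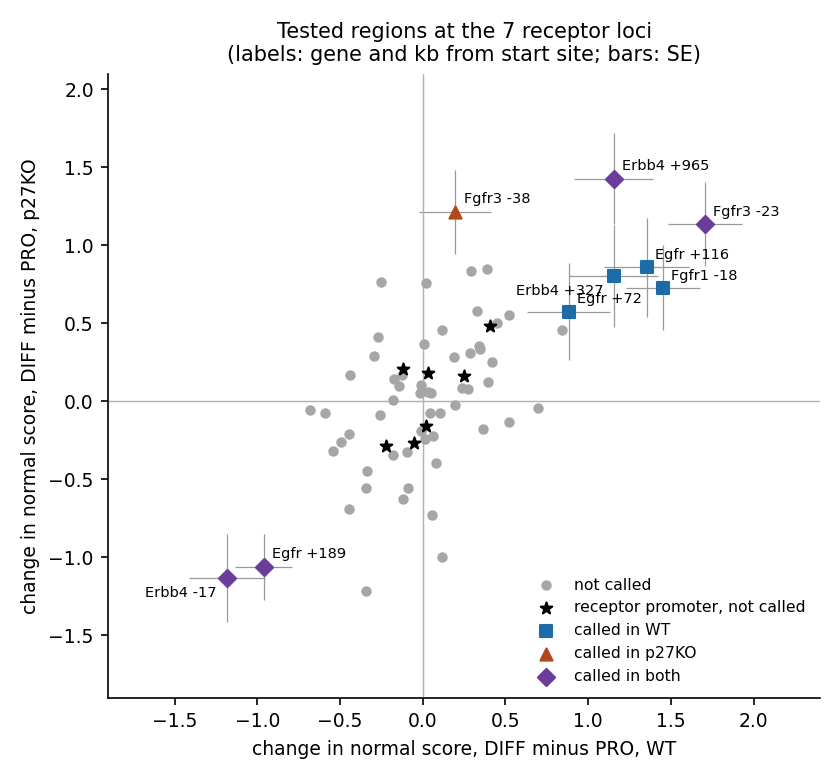
Change in normal score from PRO to DIFF in WT (horizontal axis) and in p27KO (vertical axis) for the 71 tested receptor regions, with SE bars on the called ones. The 7 promoters (stars) lie near the origin, between −0.22 and 0.41 in WT, and the 9 called regions lie in the quadrants where both genotypes share a sign.

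No receptor region was called between the genotypes or for a genotype-dependent change. The background was also low. Of all tested regions 0% were called for the interaction, 0.0156% were lower and 0% higher in p27KO at DIFF, and 0.0311% were lower and 0.00283% higher in p27KO at PRO. At an unadjusted p under 0.05 the interaction counted 4 of 71 receptor regions (5.63%), beside 3.91% of all tested regions. These 4, singled out after their values were seen, were the Fgfr3 region 37.6 kb upstream, an Fgfr3 region 16.2 kb upstream (chr5:33704945-33706376, 0.58 ± 0.26), an Fgfr2 region 18.8 kb downstream (chr7:130143348-130143833, 0.74 ± 0.32) and a region in Egfr intron 21 (chr11:16904294-16905105, −1.11 ± 0.43). All had adjusted p = 1.00 by limma. In the Egfr intron 21 region the p27KO percentiles were 56.4 and 74.1 in PRO and 12.03 and 5.07 in DIFF, while WT had 69.8, 52.5 and 30.7 in PRO and 56.0, 36.8 and 54.4 in DIFF.

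At DIFF 3 of 71 regions had an unadjusted p under 0.05 between genotypes (4.23%, beside 4.91% of all tested regions), again named after their values were seen. They were the same Egfr intron 21 region (−0.86 ± 0.31), the Fgfr1 region 12.9 kb upstream (−1.12 ± 0.25) and a region at the promoters of Rpl41 and Zc3h10 in the Erbb3 flank (0.59 ± 0.26). The smallest adjusted p was 0.566 (limma). At PRO there were 5 (7.04%, beside 5.53% of all tested regions), of which the Fgfr3 region 37.6 kb upstream (−0.78 ± 0.24), one 1.01 kb downstream of Fgfr3 (−1.29 ± 0.35) and one 14.7 kb downstream of Fgfr2 (−0.67 ± 0.30) were lower in p27KO. The Fgfr3 region 23.3 kb upstream (0.57 ± 0.25) and one in Erbb4 intron 6 (1.17 ± 0.33) were higher. Here the smallest adjusted p was 0.588.

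The intronic regions were unevenly shared among the genes. Of the 108 regions 49 lay in introns, 5 in exons, 27 upstream and 27 downstream, and 13 of those in the flanks coincided with the promoter of another gene. Egfr had 23 intronic regions in a body of 166.0 kb, and 17 of them lay in intron 1. Erbb4 had 17, of which 1 was its promoter region, Fgfr1 and Fgfr2 had 3 each, Fgfr3 had 2, Erbb3 had 1 and Erbb2 had 0. Exon and intron numbers follow the longest principal transcript of each gene.

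In Egfr intron 1, going downstream, chr11:16769333-16770234 had a peak in all 10 libraries at percentiles of 66.4 to 79.3. Next came chr11:16794930-16795314, with peaks in all 5 PRO libraries and in 1 of 5 DIFF libraries. The region chr11:16809220-16809935 was in 9 libraries, missing in 1 WT DIFF library, and chr11:16818582-16819191 was in 7, missing in all 3 WT DIFF libraries. The called region chr11:16823661-16824108 was in all 10. The region chr11:16831528-16832588 was the strongest intronic one, in all 10 libraries at 85.3 to 91.6. Further on, chr11:16841251-16841616 was in 9 libraries and chr11:16848635-16849303 in all 10, at 21.8 to 46.4. Beyond intron 1 the called region in intron 6 was in 8 libraries, and the regions in intron 12 (chr11:16877460-16878278, 43.4 to 80.4) and intron 21 in all 10. The other 12 intronic Egfr regions had peaks in 2 to 4 libraries, and 9 of them lay in intron 1.

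**Figure D4:**
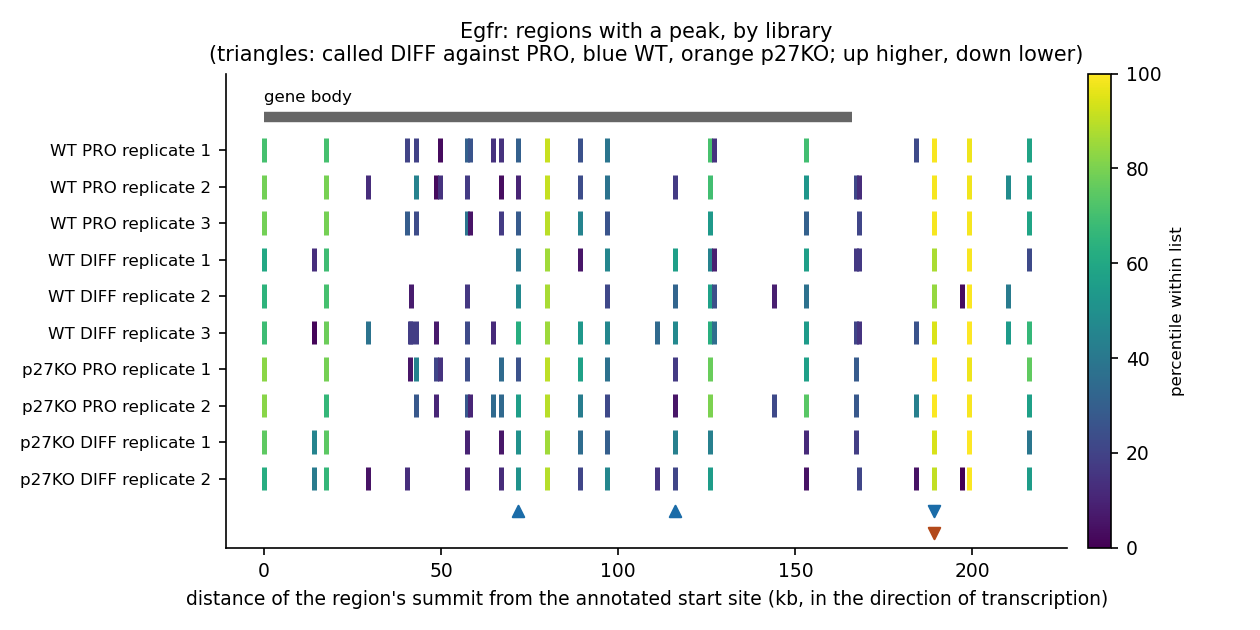
Regions at the Egfr locus by distance from the start site in kb (horizontal axis) and by library (rows), where the colour of each tick gives the percentile within that library's list. Blank positions had no peak. Triangles under the rows mark regions called between DIFF and PRO, 2 higher in WT and 1 lower in both genotypes.

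Erbb4 introns, from the last to the first, held chr1:68046314-68047526 in intron 25 (all 10 libraries, 62.1 to 96.7), the called region in intron 20 (5 libraries) and chr1:68347991-68348338 in intron 6 (7 libraries, with 1 of 3 in WT PRO). In intron 1 were the called region chr1:68779877-68781510 (8 libraries) and 4 regions present in all 10. These were chr1:68955162-68955884 at 45.1 to 93.5, chr1:68961161-68962076 at 80.8 to 96.6, chr1:68973417-68974142 at 68.0 to 92.6 and chr1:69024913-69025375 at 48.1 to 87.9. The other 8 intronic Erbb4 regions had peaks in 2 to 4 libraries. A region lay in exon 6, outside its untranslated parts, (chr1:68349268-68349448) and had a peak in 7 libraries.

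Fgfr1 had a pair of intron 2 regions in all 10 libraries, chr8:25536456-25537742 at 81.9 to 91.7 and chr8:25543294-25545254 at 64.8 to 86.1, and chr8:25555942-25556242 in intron 3 in 4 PRO libraries and no DIFF library. Its last exon held a region in the 3′ untranslated part in all 10 libraries (chr8:25574925-25575433, 18.3 to 66.1). Fgfr2 had chr7:130166272-130166659 in intron 17 (8 libraries), chr7:130184030-130184272 in intron 10 (3 libraries, 2 WT PRO and 1 p27KO PRO) and chr7:130215243-130216253 in intron 6 (all 10, 57.4 to 91.0). Fgfr3 had chr5:33722775-33723428 (6 libraries) and chr5:33726189-33726467 (5 libraries), both in intron 2, and Erbb3 had chr10:128583655-128583944 in intron 4 (4 PRO libraries and no DIFF library). Of these, the Fgfr1 intron 3, Fgfr2 intron 10 and Erbb3 regions were in too few libraries to be tested, and none of the others was called.

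By presence alone, 5 receptor regions (4.63%) were closed in WT, meaning a peak in every PRO and no DIFF library, beside 4.32% of all regions. In p27KO 7 (6.48%) were closed, beside 10.9%. Opened regions, with the opposite pattern, numbered 0 in WT beside 1.86% and 3 (2.78%) in p27KO beside 3.32%. The receptor loci are thus near or below the background in each count. The regions closed in WT were the Egfr intron 1 region chr11:16818582-16819191, the Fgfr3 intron 2 region chr5:33722775-33723428, the Erbb4 region 16.6 kb upstream, an Fgfr1 region 22.2 kb upstream (chr8:25491202-25491544, percentiles of 44.1, 33.4 and 38.8 in WT PRO) and an Erbb3 region 3.5 kb upstream (chr10:128593072-128593264). The Erbb3 region, at 20.4, 28.2 and 22.9 in WT PRO and 35.0 and 3.15 in p27KO PRO, and the Erbb4 region were closed in both genotypes.

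The other regions closed in p27KO lay in Egfr intron 1 (chr11:16794930-16795314 and chr11:16800520-16800778), Erbb3 intron 4, Erbb4 intron 3 (chr1:68498724-68499006) and Fgfr1 intron 3. Those opened in p27KO lay in Egfr intron 1 (chr11:16766046-16766645, at 45.3 and 41.3 in p27KO DIFF), in Erbb4 intron 1 (chr1:68873084-68873511, at 39.4 and 5.07) and 17.5 kb upstream of Fgfr3 (chr5:33704056-33704434, at 21.7 and 0.992). In WT the Egfr one had a peak in 2 of 3 DIFF libraries and no PRO library. These counts rest on few libraries. WT closed rose to 10 without WT PRO replicate 1 and 8 without PRO replicate 3, and WT opened to 2, 3, 2 and 2 without PRO replicate 1, PRO replicate 2, DIFF replicate 1 and DIFF replicate 2. In p27KO closed rose to 13, 12 and 11 without PRO replicate 1, PRO replicate 2 and DIFF replicate 2, and opened to 12 and 5 without DIFF replicate 1 and DIFF replicate 2. With as many of the strongest peaks from each list as the shortest list holds, WT had 2 closed and 4 opened, and p27KO 2 closed and 5 opened.

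The number of peaks per locus overlapped between PRO and DIFF at Egfr and Erbb4 in WT. At Egfr the libraries had 26, 21 and 18 peaks in WT PRO, 16, 17 and 29 in WT DIFF, 22 and 24 in p27KO PRO, and 16 and 21 in p27KO DIFF. At Erbb4 they had 18, 14 and 16, then 19, 14 and 26, then 21 and 21, and then 20 and 22. In both genes WT DIFF replicate 3, which had the longest WT list, had the most peaks, and the WT groups overlapped. The counts were 5 to 10 at Erbb2, 10 to 15 at Fgfr1, 5 to 9 at Fgfr2 and 8 to 13 at Fgfr3. Erbb3 had 10, 11 and 10 in WT PRO, 8, 8 and 9 in WT DIFF, 13 and 12 in p27KO PRO, and 10 and 11 in p27KO DIFF.

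At Erbb3 DIFF libraries had 2 peaks fewer on average (exact two-sided permutation test within genotype, p = 0.0167, adjusted p = 0.117 over 14 tests) and p27KO libraries 2.17 more (exact test within condition, p = 0.01, adjusted p = 0.117). These are the smallest p-values that the 120 and 100 arrangements allow. With equal list lengths the Erbb3 difference between DIFF and PRO was 0.167 in the other direction. The remaining 12 tests gave unadjusted p of 0.22 or more by exact permutation, and 0 of 14 passed. Adjusted over 14 tests, a single locus at the smallest possible p could not have passed, so these tests say little of any 1 locus. Summed over the 7 loci WT PRO libraries had 10.7 ± 0.709 (SD, n = 3) of every 10000 peaks of their list, and WT DIFF libraries had 12.1 ± 0.289 (n = 3). The p27KO values were 10.4 ± 0.354 in PRO and 11.7 ± 0.707 in DIFF (n = 2 each).

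**Figure D5:**
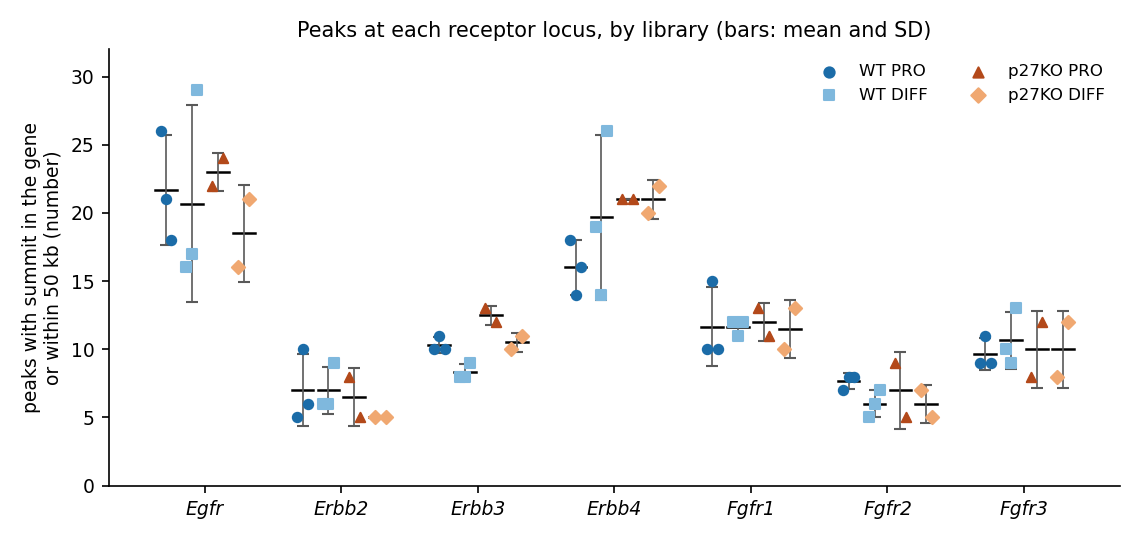
Number of peaks with a summit in the gene or within 50 kb (vertical axis, from 0) at each receptor (horizontal axis), with a point for each library and bars for the mean and SD of each group. Egfr has the highest single count, 29 in WT DIFF replicate 3, and at Erbb3 the 3 WT DIFF libraries, with 8, 8 and 9, lie below every PRO library.

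The genes that act with these receptors were read from 6 lists of 95 genes, of which 89 had a promoter tested. In WT 1 promoter was lower at DIFF and 0 were higher, and in p27KO 0 were called, by limma with p adjusted over all promoters, beside the background shares of promoters given above. At an unadjusted p under 0.05 there were 10 of 89 in WT (11.2%, beside 15% of all promoters) and 7 in p27KO (7.87%, beside 9.89%). The median change over the 89 was 0.115 in WT and 0.0967 in p27KO, against 0.123 and 0.141 over all promoters.

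Among FGF ligands 14 of 15 were tested, and Fgf21, an FGF that circulates as a hormone, was called lower at DIFF in WT. Its promoter peak (chr7:45616235-45616604) had percentiles of 53.1, 66.5 and 56.3 in WT PRO, was found at 20.5 in WT DIFF replicate 3 alone, and had 49.6 and 56.6 in p27KO PRO and 5.07 in p27KO DIFF replicate 2 alone. PRO values lay above DIFF values in both genotypes. The change was −1.19 ± 0.19 in WT (adjusted p = 0.0137, limma) and −0.93 ± 0.23 in p27KO (adjusted p = 0.163). The list's call is lost without WT PRO replicate 2 or 3 or WT DIFF replicate 1 or 2, each leaving 0 calls. Peaks in DIFF libraries alone were too few for a test, and the promoter met the minimum through PRO, where it was high. Its p-values are a description and no support for a difference. The highest WT change in that list was 0.27 ± 0.185 at Fgf13. The list's median was −0.16 in WT, with 4 of 14 above 0.

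Of the EGF family ligands 10 of 11 were tested and 0 called, from −0.26 ± 0.27 at Ereg, encoding epiregulin, to 0.43 ± 0.17 at Nrg3, encoding a neuregulin. Receptor partners and inhibitors, with 17 of 20 tested and 0 called, ran from −0.10 ± 0.18 at Errfi1, encoding an inhibitor of EGFR, to 0.68 ± 0.18 at Socs5 (adjusted p = 0.13, limma). Adaptors and exchange factors, with 17 of 18 tested and 0 called, ran from −0.50 ± 0.18 at Grb14 to 0.48 ± 0.17 at Shc3. These lists had medians of 0.213, 0.191 and 0.077 in WT.

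In the RAS, RAF, MEK and ERK list 16 of 16 were tested and 0 called. The extremes were Map2k2, encoding MEK2, at −0.17 ± 0.18, and Mapk3, encoding ERK1, at 0.81 ± 0.16. Mapk3 stood closest to the threshold (adjusted p = 0.0516, limma) with mean percentiles of 46.4 in WT PRO and 70.5 in WT DIFF. For PI3K, AKT and PLC gamma 15 of 15 were tested and 0 called, and the highest change was 0.42 ± 0.16 at Pik3r2. The medians in WT were 0.11 and 0.0714.

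The promoter whose normal scores over the 10 libraries were most like those of Egfr was that of Hes6 (Pearson r = 0.938), a transcription factor gene of the neurogenic lineage. The closest to Erbb2 was Washc4 (0.908), to Erbb3 Llph (0.924), to Erbb4 Rack1 (0.957), to Fgfr1 1700001F09Rik (0.898), to Fgfr2 B3glct (0.898) and to Fgfr3 4833439L19Rik (0.966). Each r is the highest of 14835, and the points share libraries, groups and list lengths, so it is a description only. At r of 0.8 or more, Fgfr3 had 822 other promoters, and the remaining receptors 7 to 76.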

How the data were processed

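The deposited files are 1 narrow-peak list per library. According to the submitters' notes and the study's methods, reads were trimmed with cutadapt and Trimmomatic, aligned to GRCm38 with Bowtie2, and peaks called per library with MACS2 at a false discovery rate of 0.05. The fold enrichment (a ratio to local background) and the −log10 p-values and q-values are those the authors deposited. Tool versions are not given in the sources used here.

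Peaks overlapping by 1 bp were joined over libraries into 137454 regions. Those found in 2 or more libraries numbered 99231, and the 70627 found in 5 or more were tested. For each, the highest fold enrichment was ranked within its library and turned into a normal score, with absent peaks tied at the bottom. These scores were fitted with limma 3.58.1 (R 4.3.3), with 4 group means and Benjamini-Hochberg adjustment over all tested regions, or over 14836 promoters. The script was tested on simulated data. Genes follow GENCODE M21. Percentiles were computed over each library's whole list.

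The study's read-based test needs alignments, which were not used here. Groups follow titles and genotype labels. The description field of the p27KO samples says WT. Replicates with the same number did not deviate together (13 pairs, r from −0.141 to 0.0647), so the numbers were not used for pairing. The 13 pairs are not independent. With 2 libraries in a p27KO group the deviations mirror each other, so p27KO PRO with DIFF gives the same r of −0.141 for both numbers.

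Regions named in the text are the receptors' promoters, every called region, every region closed or opened by presence, and the intronic regions. Likeness named the 1 gene of highest r, and lists the genes called plus the highest and lowest in WT. Some items that these rules would name are not reported here. The receptors, lists and rules were chosen with earlier results of these data known.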

Additional observations from a re-analysis of the deposited data

How the results depend on the processing

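Read depth is not known, so a missing peak may reflect depth, and with 2 p27KO libraries a group each of the 5 p27KO calls is lost without at least 2 of the 4 p27KO libraries, taken 1 at a time. Of 13 called changes at single regions, 0 turned sign over 218 recomputed values, and 21 values lost the call, named beside each region. Settings in which a region was no longer tested gave no value and count neither as kept nor as lost. The WT change of the Egfr downstream region had 18 values. Those of the Fgfr1 upstream region and the Erbb4 intron 20 region had 15 each. Requiring a peak in all 10 libraries left 2 calls in WT and 3 in p27KO among 44 regions. Counting gene bodies alone left 55 regions. The whole annotated Fgfr2 body, chosen after seeing the data, gave 261 regions with 30 calls in WT and 20 in p27KO. Leaving out 1 library gave 1 to 5 calls in p27KO, 0 to 1 pathway promoters in WT, 5 to 10 closed and 0 to 3 opened regions in WT, and 9 to 13 closed and 3 to 12 opened in p27KO. Keeping peaks with −log10 q of at least 5 gave 3 closed and 4 opened in WT, 4 closed in p27KO, and 2 (WT) and 1 (p27KO) pathway promoters. Lists of equal length gave 2 closed and 4 opened in WT, 2 closed and 5 opened in p27KO, and 2 pathway promoters in WT. The causes were not tested.

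With the replicate number as a block the calls were 8 in WT and 5 in p27KO, and the block changed no call count between genotypes or for the interaction. The p27KO pair had a correlation of −0.141, and with its numbers crossed, chosen after seeing the data, there were 6 calls.

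None of the changes that turned sign passed its test under any setting (smallest adjusted p = 0.221 for promoters by limma and 0.117 for locus counts by exact permutation test). Ranking by −log10 p-value gave promoter changes in WT of −0.133 at Erbb3, −0.023 at Erbb4 and 0.014 at Fgfr1, in p27KO of −0.0268 at Erbb3 and −0.0652 at Erbb4, and between genotypes at DIFF of 0.00611 at Erbb4 and −0.0142 at Fgfr1. Among regions in all 10 libraries the WT change was −0.0675 at Erbb2 and −0.0527 at Erbb3, and with the replicate block Fgfr3 differed by 0.00876 between genotypes at DIFF. Without 1 library the WT change ran from −0.138 to 0.13 at Erbb2, −0.0357 to 0.128 at Erbb3, −0.249 to 0.103 at Fgfr1 and −0.311 to 0.0378 at Fgfr2, and in p27KO from −0.348 to 0.028 at Erbb2 and −0.151 to 0.507 at Erbb3. Between genotypes at DIFF it ran from −0.128 to 0.301 at Egfr, −0.279 to 0.0965 at Erbb2, −0.189 to 0.0868 at Erbb4, −0.0761 to 0.275 at Fgfr1 and −0.138 to 0.0319 at Fgfr3. At PRO it ran from −0.0886 to 0.26 at Erbb2, −0.275 to 0.382 at Erbb3 and −0.131 to 0.158 at Erbb4.

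For peaks per locus, lists of equal length gave DIFF minus PRO of 2.67 at Egfr, 0.333 at Erbb2, 0.167 at Erbb3, 0.917 at Fgfr1 and 0.5 at Fgfr2, and p27KO minus WT of −0.583 at Fgfr1. With −log10 q of at least 5, p27KO minus WT was 0.583 at Erbb2, −0.417 at Fgfr1, and 0.0833 at Fgfr2 and Fgfr3. Gene bodies alone gave −1.42 (DIFF minus PRO) and 0.25 (p27KO minus WT) at Fgfr3. Without 1 library, DIFF minus PRO ran from −1.0 to 0.583 at Fgfr1 and −0.5 to 1.5 at Fgfr3, and p27KO minus WT from −1.67 to 1.67 at Egfr, −0.667 to 0.917 at Fgfr1, −1.33 to 0.667 at Fgfr2 and −1.17 to 0.833 at Fgfr3.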
